A study of Mus musculus with 8 samples.

Results

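The genes described here are 9 regulators and markers of the myogenic lineage: the transcription factors Myod1, Myog, Myf5, Myf6, Pax7, Mef2a, Mef2c and Mef2d, and the adhesion molecule Cdh15 (M-cadherin). They were taken as every non-control probe of the array whose gene name is 1 of these 9, which gave 14 probes on 41 spots. Of the 9 genes, 8 had a probe that passed the filter on dim signal and were among the 16016 genes tested, and 13 of the 14 probes passed. Myf5 did not pass and is described by its signal only. The array listed 27398 gene names in all.

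Male C57BL/6 mice, 8 weeks old, gave RNA from the tibialis anterior (a lower leg muscle of mostly fast fibres), which was measured on 1 single-colour Agilent array per mouse. Prep1deltaSM mice (n = 4) had lost Prep1 in skeletal muscle. They were compared with Prep1f/+ mice (n = 4), which carry a floxed Prep1 allele and which the design text also calls Prep1 flox. Pknox1 is the gene symbol of Prep1, a TALE homeodomain factor that binds DNA together with Pbx proteins. The Cre driver, and whether the Prep1f/+ mice carry Cre, is not given in the sources used here. The tissue is whole muscle, so each value is a mixture of fibres, satellite cells and the other cells of the muscle.

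Satellite cells are the stem cells of adult muscle. They lie between the fibre and its basement membrane, express Pax7, and are held against the fibre in part by M-cadherin. When activated they express the bHLH factors Myf5 and MyoD and then, on differentiation, myogenin. These factors bind E-boxes (CANNTG) as dimers with E proteins. In mature fibres Myf6 (MRF4) is the most abundant member of the MyoD family, and the MEF2 proteins, which are MADS-box factors, work with the MyoD family at muscle promoters. TALE factors such as Prep1 and Meis recognise TGACAG, and Pbx with Meis is known to help MyoD bind at the Myog promoter.

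Sequences of some member probes and promoter windows are shown first. Probe A_52_P311841 of Mef2a covers the end of the coding sequence, with the stop codon in capitals, and is shown because the other probes of the gene lie further along the transcript. Probe A_51_P504672 of Mef2d is shown because its bases lie on both sides of a gap in the genome. It and the first 30 bases of the single Cdh15 probe (A_51_P481930) are given without capitals.
Mef2a, mm9 chr7:74379743-74379802, minus strand: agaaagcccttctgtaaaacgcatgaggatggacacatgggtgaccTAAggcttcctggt
Mef2d, mm9 chr3:87972214-87972560, plus strand: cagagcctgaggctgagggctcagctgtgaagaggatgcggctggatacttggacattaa
Cdh15, mm9 chr8:125391031-125391060, plus strand: ggcccatccttggctccatggcagataaac

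The 250 bases before the RefSeq start (GRCm38.p6) of Cdh15, the member with the largest difference, and of Myog, a known target of MyoD and MEF2, are shown with every CANNTG and TGACAG on either strand in capitals.
Cdh15, chr8:122848124-122848373, plus strand: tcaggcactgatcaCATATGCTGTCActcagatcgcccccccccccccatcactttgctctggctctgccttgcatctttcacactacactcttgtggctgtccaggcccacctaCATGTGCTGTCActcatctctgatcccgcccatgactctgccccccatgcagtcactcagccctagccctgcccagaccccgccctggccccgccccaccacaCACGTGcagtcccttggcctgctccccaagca
Myog, chr1:134289754-134290003, plus strand: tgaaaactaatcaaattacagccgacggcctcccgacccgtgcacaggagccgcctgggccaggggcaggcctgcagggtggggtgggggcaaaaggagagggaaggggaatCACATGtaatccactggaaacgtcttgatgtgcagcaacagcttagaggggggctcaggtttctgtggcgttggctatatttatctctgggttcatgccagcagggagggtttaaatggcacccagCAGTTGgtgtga

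The Cdh15 window held 3 E-boxes (CANNTG), whose first bases lay 236, 135 and 32 bases before the start. It also held 2 copies of TGACAG, both on the minus strand and so read as CTGTCA in the printed strand, at 230 and 129 bases before the start. Each of these copies directly follows an E-box, with no base between them and no overlap. The Myog window held 2 E-boxes, at 138 and 12 bases before the start, and no TGACAG. Of the 32851 promoter windows of the same length in the table, 66.2% held at least 1 CANNTG and 12.2% at least 3, while 15.9% held at least 1 TGACAG and 1.64% at least 2. An E-box that touches a TGACAG, an arrangement noticed in Cdh15 and then counted, stood in 94 windows, and 3 windows, Cdh15 among them, held at least 2. These are matches of letters and not measured binding. Promoters were found for 7 of the 9 members, Myod1 and Myf6 being the exceptions. None of these windows held TGATTGAC, a site of Pbx with Meis or Prep1, which 0.691% of all windows held. The windows of Pax7, Mef2a, Mef2d and Myf5 held no CANNTG and no TGACAG, and those of Mef2c, which has 3 listed starts, held 2, 0 and 1 CANNTG and no TGACAG.

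The targeted gene was checked first. The normalized log2 signal of Pknox1, the log2 signal of a spot minus the 75th percentile of its array, was -1.84, -2.08, -2.28 and -1.96 in Prep1deltaSM muscle, against -0.09, -0.31, -0.21 and -0.51 in Prep1f/+ muscle. Signal in Prep1deltaSM was 29.5% of that in Prep1f/+ (limma, adjusted p = 0.0072), and Pknox1 was the 1 gene of 16016 that passed an adjusted p of 0.05. Arrays carried 43379 non-control spots each, of which 23787 to 27123 were well above background, and no spot was saturated. Replicates 1 and 4 of Prep1f/+ stood apart from the other 6 arrays on the first principal component (24.4% of variance), at 23.5 and 41.0 against -17.1 to 3.21. The members' differences without these arrays are given with the alternative settings. All 12 skeletal muscle fibre markers of a list were measured, with list means (levels centred per gene) of -0.06 to 0.07 in Prep1deltaSM and -0.14 to 0.12 in Prep1f/+. Of the satellite cell markers on the array, Myf5 and Pax3 were not measured above background on enough arrays to be tested.

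Among the 9 genes, M-cadherin showed the clearest difference between the genotypes: its signal in Prep1deltaSM muscle was 36.0% lower than in Prep1f/+ muscle, and every Prep1deltaSM mouse lay below every Prep1f/+ mouse. The MyoD family genes Myod1, Myog and Myf6 and the stem cell factor Pax7 differed by less than the spread between mice. Mef2d was 12.6% lower with little spread. For Mef2a, probes at different places of the gene gave different values. The dimmer Mef2c probe was near the background, and its difference is not read as a result. At an adjusted p of 0.05 (limma, over all 16016 genes) 0 of the 8 tested genes passed, where 0.00624% of all genes did, and 2 of 8 had an unadjusted p under 0.05, where 15.9% of all genes did. The groups did not overlap for the same 2 genes, Cdh15 and Mef2d, both lower in Prep1deltaSM; among all genes tested 6.74% were lower and 3.72% higher without overlap. By sign alone 4 of the 8 differences were below 0, where 62.7% of all genes were, and the median difference was -0.03 against -0.07 for all genes tested.

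**Figure D1:**
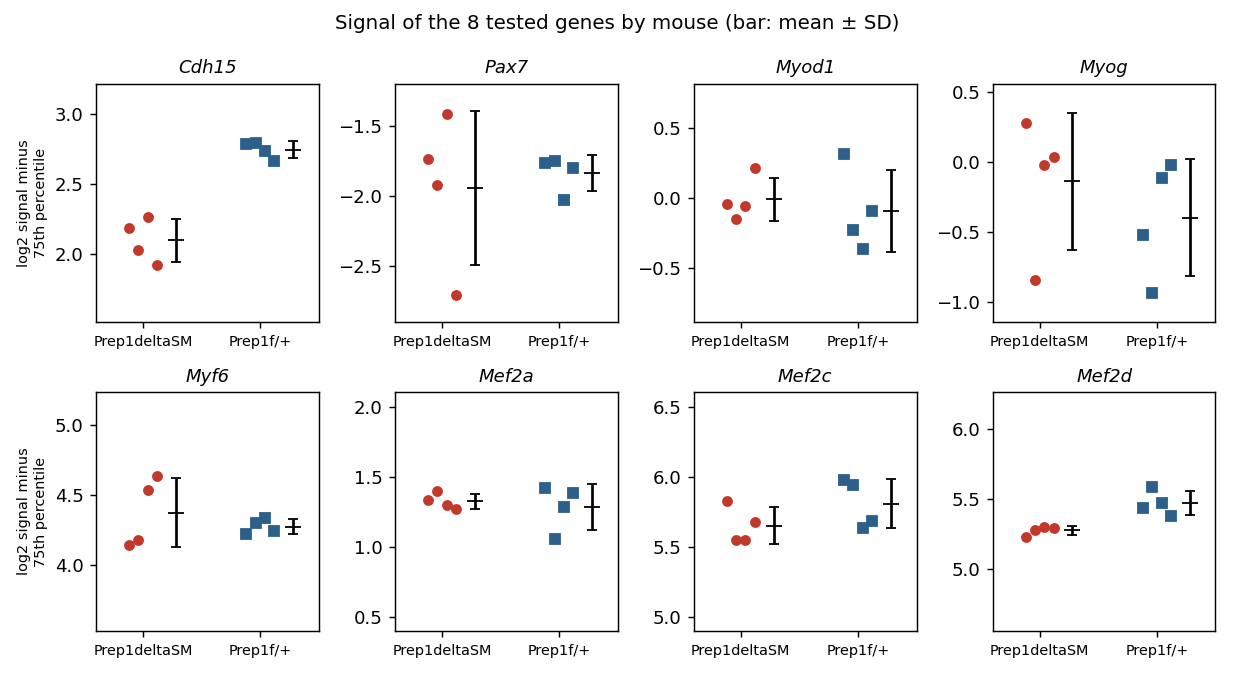
Normalized log2 signal (vertical axis, log2 signal minus the 75th percentile of the array) of the 8 tested genes in each mouse, Prep1deltaSM as circles and Prep1f/+ as squares, with the mean and SD (n = 4) beside each group. The vertical axis has the same span in every panel but a different centre. The groups do not overlap for Cdh15 and Mef2d.

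Cdh15 encodes M-cadherin, a calcium-dependent adhesion molecule of satellite cells and myoblasts. Its normalized log2 signal was 2.18, 2.03, 2.27 and 1.92 in Prep1deltaSM mice, against 2.79, 2.80, 2.73 and 2.66 in Prep1f/+ mice. The highest Prep1deltaSM mouse lay below the lowest Prep1f/+ mouse, and the spread in Prep1f/+ was narrow. Means were 2.10 ± 0.15 in Prep1deltaSM and 2.74 ± 0.06 in Prep1f/+ (SD, n = 4 each), a log2 difference of -0.64 (SE 0.10, 95% confidence interval -0.87 to -0.42). That corresponds to a signal in Prep1deltaSM of 64.0% of the Prep1f/+ signal. The unadjusted p was 0.000127, which ranked 22nd of 16016 genes, and the adjusted p was 0.0897 (limma), above the threshold of 0.05. A Prep1deltaSM array and a Prep1f/+ array shared each of the 4 slides, and on all 4 the Prep1deltaSM array was lower, by -0.61, -0.70, -0.86 and -0.40 on the log2 scale. The adjusted p was 0.207 with slide as a block and 0.0339 with a trended robust variance fit, and over all settings tried it ran from 0.0339 to 0.345. Without Prep1f/+ replicates 1 and 4 the difference was -0.66.

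In whole muscle, fewer satellite cells and less Cdh15 RNA per cell cannot be told apart. The satellite cell marker list without the 9 genes (7 tested genes) had means of -0.15 to 0.04 in Prep1deltaSM and -0.14 to 0.19 in Prep1f/+, which overlap. Markers of other cells were lower together in some Prep1deltaSM mice. For comparison, 62.7% of all genes tested were lower, with a median difference of -0.07. For fibroblast and matrix genes, 10 of 12 tested were lower, with list means of -0.50 to 0.26 in Prep1deltaSM against -0.17 to 0.36 in Prep1f/+. For macrophage and leukocyte genes, 11 of 11 tested were lower, with means of -0.60 to 0.15 in Prep1deltaSM against -0.11 to 0.55 in Prep1f/+. Adipocyte genes (6 tested, all lower) spread widely, from -2.21 to 1.16 in Prep1deltaSM and from -0.70 to 1.27 in Prep1f/+. Counts of markers lower and higher were 6 and 4 for endothelium, 4 and 4 for smooth muscle and pericyte, and 3 and 5 for Schwann cells. Of any list 0 markers passed an adjusted p of 0.05. At an unadjusted p under 0.05 (limma), 5 of 12 fibroblast and 4 of 11 leukocyte markers were lower and 0 higher. So were 2 of 10 satellite cell markers, Cdh15 and Itga7. For smooth muscle and pericyte 1 was lower and 3 higher, and for endothelium and for fibres 1 and 1. For Schwann cells and adipocytes the count was 0. Among all genes 10.3% were lower and 5.54% higher at that p. In Prep1deltaSM replicates 1 to 4 the fibroblast means were -0.18, -0.30, 0.26 and -0.50, and the leukocyte means -0.13, -0.37, 0.15 and -0.60. Cdh15, at 2.18, 2.03, 2.27 and 1.92, had the same order in these mice. In Prep1f/+ replicates 1 to 4 the fibroblast means were -0.17, 0.28, 0.36 and 0.25, and the leukocyte means -0.11, 0.17, 0.55 and 0.33. Cdh15, at 2.79, 2.80, 2.73 and 2.66, did not share that order. A link between Cdh15 and the mixture of cells was not tested.

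Pax7 is the paired-box factor that marks satellite cells and maintains them. Its probe (mm9 chr4:139294364-139294423, minus strand) was well above background on all 8 arrays, with normalized log2 signals of -1.74, -1.92, -1.41 and -2.71 in Prep1deltaSM mice and -1.77, -1.75, -2.03 and -1.80 in Prep1f/+ mice. Prep1deltaSM held both the highest and the lowest mouse, and the Prep1f/+ values lay between them. Means were -1.94 ± 0.55 in Prep1deltaSM and -1.84 ± 0.13 in Prep1f/+ (SD, n = 4 each), a difference of -0.11 with a 95% confidence interval of -0.67 to 0.46 (limma, adjusted p = 0.855). Replicate 4 of Prep1deltaSM set the sign: without it the difference was 0.15. The interval allows a Pax7 difference as large as that of Cdh15 and also one in the other direction.

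Across the 8 arrays, with each group's mean subtracted, Pax7 and Cdh15 moved together (Pearson r = 0.87, permutation p = 0.0243; Spearman rho = 0.91, permutation p = 0.033; exact, within groups). Over the 28 pairs of members compared, the adjusted p was 0.608, and without the 2 arrays farthest from the median Pax7 level r was 0.48, so the relation rests on those arrays. Mef2a and Mef2d had r = -0.88 and rho = -0.81 (exact permutation p = 0.0434 and 0.0365, adjusted p = 0.608), with r = -0.71 without the 2 farthest arrays. No pair passed the adjustment.

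Myod1, the factor that can turn other cells into muscle cells, was printed on 10 spots of the array. Its normalized log2 signal was -0.04, -0.15, -0.05 and 0.21 in Prep1deltaSM mice and 0.32, -0.22, -0.36 and -0.09 in Prep1f/+ mice. The Prep1deltaSM values lay inside the Prep1f/+ range. The difference was 0.08 (SE 0.16, 95% confidence interval -0.27 to 0.44; limma, adjusted p = 0.818), and it was -0.01 without Prep1f/+ replicate 3. The probe lies at mm9 chr7:53633956-53634015 on the plus strand.

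Myog encodes myogenin, the bHLH factor required for myoblasts to differentiate, which is also raised in denervated fibres. Its probe (mm9 chr1:136188874-136188933, plus strand), also on 10 spots, gave 0.28, -0.84, -0.03 and 0.03 in Prep1deltaSM mice and -0.52, -0.93, -0.11 and -0.02 in Prep1f/+ mice. A low mouse stood in each group, replicate 2 of Prep1deltaSM and replicate 2 of Prep1f/+. Means were -0.14 ± 0.49 in Prep1deltaSM and -0.40 ± 0.42 in Prep1f/+ (SD, n = 4 each), a difference of 0.26 with a 95% confidence interval of -0.38 to 0.90 (limma, adjusted p = 0.667). Within the slides the difference was 1.21, -0.73, 0.56 and -0.00, so its sign was not shared. Without replicate 2 of Prep1f/+ it was 0.08, and without replicate 2 of Prep1deltaSM 0.49.

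The 10 spots of an array give the error between spots, and not that of labelling or hybridisation. All 80 Myod1 spots and all 80 Myog spots were well above background. The SD of the log2 signal over the 10 spots of an array was 0.04 to 0.09 for Myod1 and 0.04 to 0.12 for Myog. The SD between arrays was 0.49 in Prep1deltaSM and 0.42 in Prep1f/+ for Myog, and 0.16 in Prep1deltaSM and 0.29 in Prep1f/+ for Myod1. Each mouse is 1 array, so the mouse and its RNA preparation cannot be told apart.

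**Figure D2:**
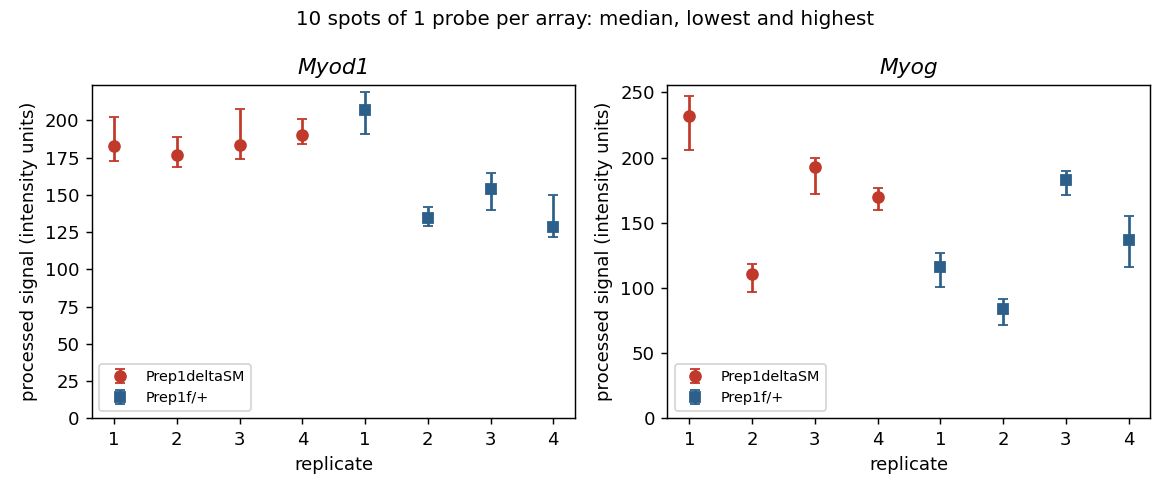
Processed signal (vertical axis, linear intensity units from 0, not scaled between arrays) of the Myod1 and Myog probes on each array, Prep1deltaSM as circles on the left and Prep1f/+ as squares on the right; points are medians and bars run from the lowest to the highest of 10 spots. Array medians run from 128.5 to 207 for Myod1 and from 83.8 to 232 for Myog, while the bars within an array are short.

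Myf5, the earliest factor of the family in the embryo and a marker of satellite cells, was not measured above background. Its probe (mm9 chr10:106919974-106920033, minus strand) was also printed on 10 spots, and 1 of 80 spots was well above background, a spot of 21.6 on Prep1deltaSM replicate 3. The median signal of the 10 spots was 1.39 to 1.74 on Prep1deltaSM arrays and 1.46 to 2.05 on Prep1f/+ arrays. No fold is given, since both groups were below background. The Myf6 probe lies 10263 bases away in the same gene pair and was measured on every array.

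Myf6 encodes MRF4, the MyoD family member of mature fibres. Its signal was 4.15, 4.18, 4.54 and 4.64 in Prep1deltaSM mice and 4.23, 4.30, 4.34 and 4.24 in Prep1f/+ mice (probe at mm9 chr10:106930237-106930296, minus strand). Both the lowest and the highest mice were Prep1deltaSM. The difference was 0.10 (SE 0.13, 95% confidence interval -0.19 to 0.39; limma, adjusted p = 0.725). It was below 0 on slides 1 and 2 (-0.15 and -0.16) and above 0 on slides 3 and 4 (0.41 and 0.29). Its size rested on single mice and on the scaling: it was 0.01 without Prep1deltaSM replicate 4, 0.05 without Prep1deltaSM replicate 3, 0.17 without replicate 1, 0.16 without replicate 2 and 0.17 with quantile normalization.

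The MEF2 genes were covered by several probes each. Over all 13 probes of the 8 genes, 5 had an unadjusted p under 0.05, where 17.8% of the 24488 probes did, and 0 passed an adjusted p of 0.05, where 0.00408% did. The 5 were those of Cdh15, 1 of Mef2d, 2 of Mef2a and 1 of Mef2c. The Mef2c probe met the filter through its Prep1deltaSM arrays, so its p is in the count but is not read as a result.

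**Figure D3:**
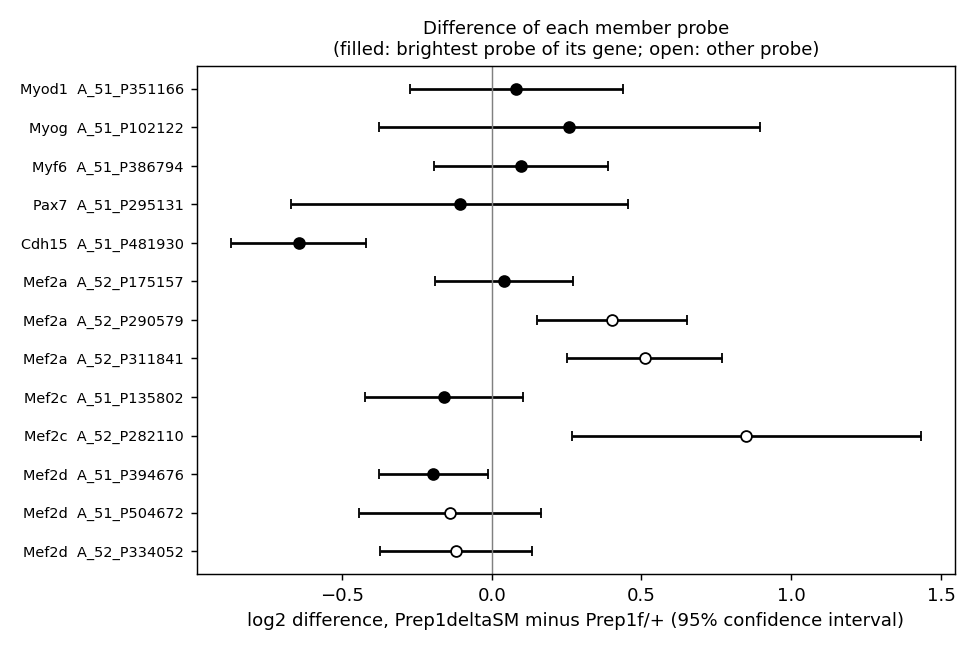
Log2 difference, Prep1deltaSM minus Prep1f/+ (horizontal axis), of the 13 probes that passed the filter, with 95% confidence intervals from the fit over all probes; filled points are the brightest probe of a gene and open points its other probes. For Mef2a and Mef2c the open points lie to the right of the filled point, and for Mef2d the 3 probes lie together below 0. The open Mef2c point was well above background on 2 of 4 Prep1f/+ arrays, and its interval is not read as a result.

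Mef2a encodes a MEF2 factor of adult muscle and heart. Its brightest probe, A_52_P175157, at mm9 chr7:74376573-74376632 on the minus strand, gave 1.34, 1.40, 1.30 and 1.27 in Prep1deltaSM mice and 1.42, 1.05, 1.29 and 1.38 in Prep1f/+ mice. The groups overlapped, with a difference of 0.04 (SE 0.10; limma, adjusted p = 0.860) that was -0.04 without Prep1f/+ replicate 2. The stop codon probe shown above, A_52_P311841, gave 0.88, 0.81, 0.62 and 0.61 in Prep1deltaSM mice and 0.23, 0.32, -0.01 and 0.35 in Prep1f/+ mice. Here every Prep1deltaSM mouse was above every Prep1f/+ mouse, with means of 0.73 ± 0.13 in Prep1deltaSM and 0.22 ± 0.17 in Prep1f/+ (SD, n = 4 each). The difference was 0.51 (SE 0.11, 95% confidence interval 0.25 to 0.77; limma over all probes, adjusted p = 0.108), and it was above 0 on all 4 slides.

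The third Mef2a probe, A_52_P290579 (mm9 chr7:74379398-74379457), lies 345 bases further along the transcript. It gave 0.56, 0.70, 0.41 and 0.35 in Prep1deltaSM mice and -0.02, 0.08, 0.07 and 0.29 in Prep1f/+ mice. The groups again did not overlap, with a difference of 0.40 (SE 0.11, 95% confidence interval 0.15 to 0.65; limma over all probes, adjusted p = 0.143). The brightest probe lies 3170 bases beyond the stop codon probe. Within each array, the log2 ratio of the stop codon probe to the brightest probe was -0.60 ± 0.10 in Prep1deltaSM and -1.07 ± 0.25 in Prep1f/+ (SD, n = 4 each), a difference of 0.47. That of A_52_P290579 to the brightest probe differed by 0.36. Both ratios had an exact two-sided permutation p of 0.0286, the smallest that the 70 assignments can give, and an adjusted p of 0.1001 over the 7 probe pairs compared. The 2 upstream probes differed from each other by 0.11 (exact permutation p = 0.257). This ratio test was chosen after the probe values had been seen. With the mean of the 3 probes as the value of the gene, the Mef2a difference was 0.32 (limma, adjusted p = 0.190).

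Mef2c encodes the MEF2 factor needed for early heart and fibre development. Its brightest probe, A_51_P135802 (mm9 chr13:83802754-83802813, plus strand), gave 5.83, 5.55, 5.55 and 5.68 in Prep1deltaSM mice and 5.98, 5.94, 5.64 and 5.69 in Prep1f/+ mice. Prep1deltaSM was the lower array on all 4 slides, but the groups overlapped. The difference was -0.16 (SE 0.11, 95% confidence interval -0.42 to 0.10; limma, adjusted p = 0.517). The other probe, A_52_P282110, lies 85631 bases upstream in the genome (mm9 chr13:83717123-83717182) and is assigned by the array design to a cDNA, not to a RefSeq transcript of the gene. It was near the background, well above it on all 4 Prep1deltaSM arrays and on 2 of 4 Prep1f/+ arrays. It gave -3.08, -3.07, -3.57 and -4.04 in Prep1deltaSM mice and -3.92, -4.58, -4.05 and -4.61 in Prep1f/+ mice. The groups overlapped by 1 mouse, Prep1deltaSM replicate 4. Since 2 of the 4 Prep1f/+ values are not above background, no interval or test is read from the difference of these values, which was 0.85, and 0.12 after normexp background correction with an offset of 50. With the mean of both probes the sign of Mef2c turned, at 0.35.

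Mef2d encodes the MEF2 factor whose muscle isoform is made by alternative splicing during differentiation. Its brightest probe, A_51_P394676 (mm9 chr3:87975777-87975836, plus strand), gave 5.23, 5.28, 5.30 and 5.29 in Prep1deltaSM mice and 5.44, 5.59, 5.47 and 5.38 in Prep1f/+ mice. All 4 Prep1deltaSM mice lay below all Prep1f/+ mice, within a range narrower than that of Prep1f/+. Means were 5.28 ± 0.03 in Prep1deltaSM and 5.47 ± 0.09 in Prep1f/+ (SD, n = 4 each), a difference of -0.19 (SE 0.08, 95% confidence interval -0.37 to -0.02), or 87.4% of the Prep1f/+ signal. The unadjusted p was 0.0352 and the adjusted p 0.281 (limma). The difference was below 0 on all 4 slides.

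The array design lists each Mef2d probe under a different transcript reference. Probe A_51_P504672, shown above, spans 347 bases of the genome with its 60 bases and so crosses a gap of 287 bases, and A_52_P334052 (mm9 chr3:87972325-87972384) lies inside that gap. The brightest probe lies 3217 bases beyond the end of A_51_P504672. Probe A_51_P504672 averaged 0.65 ± 0.12 in Prep1deltaSM and 0.79 ± 0.24 in Prep1f/+, and the probe inside the gap -1.98 ± 0.06 in Prep1deltaSM and -1.86 ± 0.20 in Prep1f/+ (SD, n = 4 each). The differences of -0.14 and -0.12 did not pass the test (limma over all probes, adjusted p = 0.617 and 0.609), and without Prep1f/+ replicates 1 and 4 they were 0.03 and 0.05. The ratios between the 3 Mef2d probes differed by 0.02 to 0.08 between the genotypes (exact permutation p = 0.629 to 0.886).

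Over the alternative settings the 8 genes were recomputed 167 times. The sign was that reported above in 162 of these, and 1 recomputation, that of Cdh15 with the trended robust fit, passed an adjusted p of 0.05. Cdh15 ranged from -0.70 to -0.49 and Mef2d from -0.25 to -0.11. Without Prep1f/+ replicates 1 and 4, the differences were 0.28 for Myod1, 0.38 for Myog, 0.06 for Myf6 and -0.05 for Pax7. For the MEF2 genes they were 0.16 for Mef2a, -0.14 for Mef2c and -0.25 for Mef2d. No member passed an adjusted p of 0.05 without these arrays (limma, lowest adjusted p = 0.188, that of Cdh15).

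**Figure D4:**
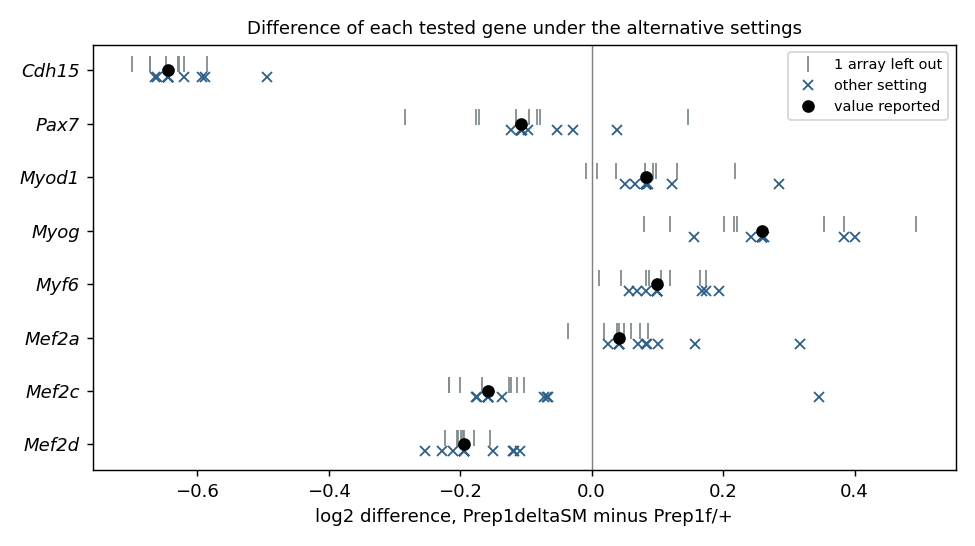
Log2 difference, Prep1deltaSM minus Prep1f/+ (horizontal axis), of each tested gene as reported (filled circles), with each array left out (ticks) and under other settings (crosses). All marks of Cdh15 lie between -0.70 and -0.49, and those of Pax7, Myod1, Mef2a and Mef2c lie on both sides of 0.

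For each member the 3 genes of the array most like it were found, by Pearson r over the 8 arrays after subtraction of each group's mean. These are the highest of 16016 values on 8 arrays and are given as a description. They were Hmgn3 (0.99), Trp53bp2 (0.99) and Car5b (0.97) for Cdh15, and Fmod (0.98), 4930579K19Rik (0.98) and Hvcn1 (0.97) for Pax7. For Myod1 they were Itga3 (0.99), Ctif (0.99) and Elf1 (0.99), for Myog Armcx3 (0.98), R74862 (0.98) and Tusc3 (0.97), and for Myf6 2510022D24Rik, Fam169a and Cpsf3 (0.95 each). Among the MEF2 genes, Mef2a was most like Ctbs (0.98) and 2 transcripts named by the array as NAP001627-002 (0.98) and AK050835 (0.97). Mef2c was most like Cdh20 (0.96), Ccdc84 (0.96) and Nfatc4 (0.94), and Mef2d most like Cml1 (0.99), Gps2 (0.98) and Ccdc109a (0.98).

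The genes around these regulators were followed in 6 lists, none of which holds a member, and 0 genes of any list passed an adjusted p of 0.05 (limma). Counts are of the brightest probe of each gene, and 62.7% of all genes tested were lower. Of 24 tested satellite cell and myoblast genes, 15 were lower and 9 higher in Prep1deltaSM. An unadjusted p under 0.05 was reached by 3 of them, all lower, where 10.3% of all genes were lower at that p. These were Gpx3, a secreted glutathione peroxidase, Cd34, a surface sialomucin of quiescent satellite cells and endothelium, and Itga7, the laminin receptor subunit of muscle. Gpx3 gave 1.52, 2.05, 1.89 and 1.42 in Prep1deltaSM mice and 2.48, 2.67, 2.58 and 2.83 in Prep1f/+ mice, which do not overlap (difference -0.92, SE 0.16; limma, adjusted p = 0.119). Cd34 gave 4.69, 4.43, 4.67 and 4.54 in Prep1deltaSM mice and 4.83, 4.95, 5.07 and 4.90 in Prep1f/+ mice, again without overlap (difference -0.35, SE 0.09; limma, adjusted p = 0.178). Both are also made by cells other than satellite cells. Itga7 differed by -0.34 with its brightest probe and by -0.08 with the other. Cxcr4, a chemokine receptor, differed by -0.46 (limma, adjusted p = 0.322). The list median was -0.02, against -0.07 for all genes. Cdh2 (N-cadherin) and Pax3 were not tested.

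Among the partners and inhibitors of the MyoD family, 19 genes were tested, 11 lower and 8 higher, with a median of -0.10. Twist1, a bHLH factor that inhibits MyoD, was the 1 gene of 19 with an unadjusted p under 0.05, where 10.3% of all genes were lower at that p. It gave -3.27, -3.23, -3.53 and -3.77 in Prep1deltaSM mice and -2.77, -3.14, -2.77 and -2.98 in Prep1f/+ mice. The groups did not overlap (difference -0.53, SE 0.15; limma, adjusted p = 0.186), as for 6.74% of all genes in that direction. Twist2 differed by -0.57, Snai1, a repressor that binds E-boxes, by -0.33, and its relative Snai2 by 0.30, with adjusted p-values of 0.315, 0.336 and 0.349 (limma). A dimmer probe of Tcf12 and one of Bhlhe41 were higher at an unadjusted p under 0.05, by 0.61 and 0.66 (limma over all probes). Of all 24488 probes, 17.8% had such a p in either direction.

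Eya coactivators act with homeodomain partners upstream of the MyoD family, and Vgll proteins bind Tead factors. Of the 17 genes of this list reported here, 9 were lower and 8 higher; the median was -0.05. An unadjusted p under 0.05 was reached by 0 of these 17 with their brightest probes, where 15.9% of all genes did. Dimmer probes of Eya1, Tead1 and Tead2 were higher at that p, by 0.46, 0.50 and 0.46 (limma over all probes). So were both dimmer probes of Eya4. Of all 24488 probes, 17.8% had such a p in either direction. Eya4, a transcriptional coactivator, differed by 0.36 with its brightest probe and by 0.56 and 0.72 with the others, with an adjusted p of 0.346 for the brightest (limma). Its brightest probe gave 2.45, 2.40, 2.20 and 2.81 in Prep1deltaSM mice and 1.88, 2.18, 2.47 and 1.90 in Prep1f/+ mice. Those groups overlapped. Six5 differed by -0.27, Vgll4 by 0.51 and Dach1 by -0.38, with adjusted p-values of 0.338, 0.369 and 0.546 (limma).

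MEF2 activity is held down by class II deacetylases and released by calcium signals through calcineurin and CaM kinase. Of 32 tested genes of this list, 24 were lower and 8 higher; the list median was -0.09. At an unadjusted p under 0.05, 6 were lower and 1 higher, where 10.3% of all genes were lower and 5.54% higher. Mef2b, the MEF2 gene that is not among the 9, gave -3.28, -3.38, -3.21 and -3.06 in Prep1deltaSM mice and -2.15, -2.84, -2.83 and -2.47 in Prep1f/+ mice. Its groups did not overlap (difference -0.66, SE 0.16; limma, adjusted p = 0.168). Nfatc3, a transcription factor activated by calcineurin, differed by -0.31 (limma, adjusted p = 0.196), but its other probe by 0.09. Ep300, a coactivator, differed by -0.28, and its other probe by -0.02. Ppp3r1, the regulatory subunit of calcineurin, was the gene that was higher, by 0.28 (limma, adjusted p = 0.265), with 0.34 and -0.02 for its other probes. Dimmer probes of Ppp3cb, Map2k6 and Kat2b were also higher at an unadjusted p under 0.05, by 0.45, 0.48 and 0.26 (limma over all probes). Of all 24488 probes, 17.8% had such a p in either direction.

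Of 27 tested genes of cadherin adhesion and myoblast fusion, 21 were lower and 6 higher by their brightest probes, where 62.7% of all genes were lower. The list median was -0.09. The 2 with an unadjusted p under 0.05, where 10.3% of all genes were lower at that p, were Rac1, a small GTPase of the cytoskeleton, and Cd9, a tetraspanin. Rac1 gave 4.53, 4.61, 4.60 and 4.65 in Prep1deltaSM mice and 4.81, 4.86, 4.80 and 4.84 in Prep1f/+ mice (difference -0.23, SE 0.07; limma, adjusted p = 0.218). The other Rac1 probe differed by -1.25 with a wide SE of 0.62 (limma over all probes, adjusted p = 0.332). Cd9 differed by -0.35 (SE 0.12; limma, adjusted p = 0.231), and the groups did not overlap for either gene, as for 6.74% of all genes in that direction. Jam3 and Boc, surface proteins of myoblasts, differed by -0.19 and -0.18 (limma, adjusted p = 0.425 and 0.440). Of all 24488 probes, 17.8% had an unadjusted p under 0.05 in either direction. Other probes of 6 genes of the list were higher at that p (limma over all probes). These differences were 0.69 for Cdh13, 0.40 for Jam2, 0.40 for Ctnna1, 0.32 and 0.34 for Ctnnb1, 0.26 for Itgb1 and 0.27 for Neo1. The other Itgb3 probe was lower at that p, with a difference of -0.45. N-cadherin, which like M-cadherin joins satellite cells to fibres, could not be compared, since Cdh2 was not tested.

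Of 20 tested genes that respond to denervation or myogenin, 11 were lower and 9 higher; the list median was -0.12. At an unadjusted p under 0.05, 2 were lower and 1 higher, where 10.3% of all genes were lower and 5.54% higher. The groups did not overlap for 1 lower and 1 higher gene, where this held for 6.74% and 3.72% of all genes. Fbxo32, the atrophy ubiquitin ligase atrogin-1, gave 2.10, 2.69, 2.96 and 3.17 in Prep1deltaSM mice and 4.11, 3.54, 3.49 and 3.30 in Prep1f/+ mice. The groups did not overlap (difference -0.88, SE 0.25; limma, adjusted p = 0.193). The other Fbxo32 probe differed by -0.43 with an SE of 0.23 (limma over all probes, adjusted p = 0.369). Chrnb1, the beta subunit of the acetylcholine receptor, was the 1 gene higher at an unadjusted p under 0.05, with -0.65, -0.69, -0.47 and -0.71 in Prep1deltaSM mice against -0.74, -0.95, -0.83 and -1.39 in Prep1f/+ mice (difference 0.34, SE 0.15; limma, adjusted p = 0.301). The Chrnb1 groups did not overlap either. Cdkn1a, a cell cycle inhibitor, differed by -0.49 (limma, adjusted p = 0.298), and Myh8, the perinatal myosin, by -0.15 (limma, adjusted p = 0.521). The Myh8 probe averaged 11.23 in Prep1deltaSM and 11.38 in Prep1f/+, near the fibre marker Myh4 (11.20 and 11.28). Whether the probe reads Myh8 alone was not tested. A dimmer probe of Chrng was lower at an unadjusted p under 0.05, with a difference of -0.56 (limma over all probes). Of all 24488 probes, 17.8% had such a p in either direction.

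**Figure D5:**
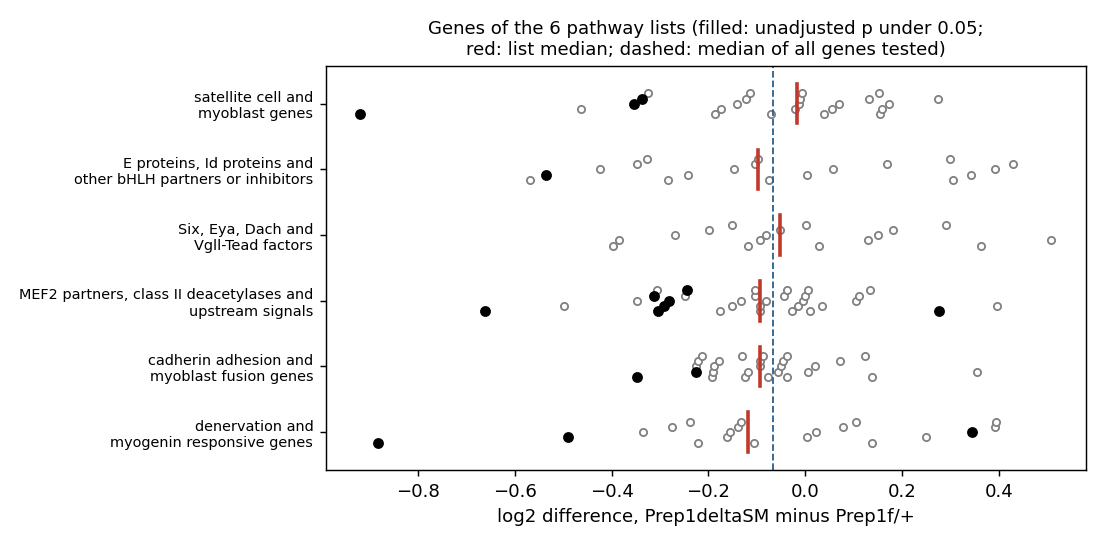
Log2 difference, Prep1deltaSM minus Prep1f/+ (horizontal axis), of every tested gene of the 6 lists, 1 list per row; filled points had an unadjusted p under 0.05, the red bar is the median of the list and the dashed line that of all genes tested (-0.07). The list medians run from -0.12 to -0.02.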

How the data were processed

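RNA of 8 mice was measured on Agilent arrays, 1 Cy3 array each. Each deposited spot intensity came, per the file headers, from protocol GE1_107_Sep09 of Feature Extraction, version 10.5.1.1: background is subtracted and arrays are not scaled to each other. Version 9.1 is named in the submitters' processing notes. The authors' deposited value table holds linear intensity values of 32812 rows (column medians 12.7 to 13.2); 26233 rows, which on every array lay within 0.1 log2 of the scanner values after quantile normalization, served as an alternative, and how the others were made is unknown.

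Intensity was taken as log2 minus the 75th percentile of the array (139 to 197 intensity units before the log). Non-uniform spots (0 to 11 on an array) were treated as missing and spots of a probe averaged. A probe was kept (24488 of 41174) where at least 4 of 8 arrays measured it well above background. The brightest probe stood for its gene, giving 16016 genes; 13570 matched the RefSeq table of GRCm38.p6. Probe positions (mm9) were read from the files. The comparison used limma 3.58.1 (lmFit, eBayes) under R 4.3.3, and p-values were adjusted by Benjamini-Hochberg over all genes, or over all probes for probe values. The fit was tested on simulated data. The number of arrays limits precision.

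The members and the lists were chosen with earlier results of these data known. Named genes are the members, Pknox1, the up to 4 genes of each pathway list with the smallest p, and the 3 genes most like each member. Other genes of the pathway lists are named where a dimmer probe had an unadjusted p under 0.05, and so were picked by that p. 1 gene of the pathway lists is not reported here and was left out of its list. No label pairs a Prep1deltaSM mouse with a Prep1f/+ mouse. All arrays were scanned on 1 day and 4 slides held 1 array of each genotype. Alternatives were other scalings, normexp with an offset of 50, slide as a block, the authors' values, other variance models, other probe rules and filters, non-uniform spots kept, and leaving out each array. The omission of Prep1f/+ replicates 1 and 4, the alternatives for single probes and the probe ratios were added after the data were seen.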

Additional observations from a re-analysis of the deposited data

Results flagged for a closer look

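Values of 102 groups of 4 mice were examined for a mouse far from the other 3, by its gap to the nearest value as a share of the group's range; 1 exceeded Dixon's critical value for 4 samples, where chance gives about 5.1. The mean of the Schwann cell markers of Prep1f/+ replicate 3 (0.66) was the highest of its group, with a gap of 0.855 of the range. No explanation was tested.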

How the results depend on the processing

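Of the 16016 genes, 1 passed an adjusted p of 0.05 as reported. The count was 32 with normexp and quantile normalization (20 higher, 12 lower), 20 with a trended robust fit, 22 with array weights, and 0 both with slide as a block and without Prep1f/+ replicates 1 and 4, where 2522 and 2686 genes had an unadjusted p under 0.05 (limma). With 1 array left out it ran from 0 to 5, and the 0 came without Prep1f/+ replicate 2 or 3 or Prep1deltaSM replicate 2 (2025, 2493 and 1908 genes at an unadjusted p under 0.05); the 5, all lower, came without Prep1deltaSM replicate 4. The cause was not tested.

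Of 167 recomputed member differences 5 reversed: Myod1 was -0.0084 without Prep1f/+ replicate 3, Pax7 was 0.0382 with array weights and 0.1466 without Prep1deltaSM replicate 4, Mef2a was -0.0360 without Prep1f/+ replicate 2, and Mef2c was 0.3458 with the mean of probes, which brings in its dim upstream probe. With 1 array left out the differences ran from -0.0084 to 0.2179 for Myod1, from -0.2837 to 0.1466 for Pax7 and from -0.0360 to 0.0854 for Mef2a, and for Myf6 from 0.0114 to 0.1747. Cdh15 (-0.6441) passed the threshold with the trended robust fit (adjusted p = 0.0339). The Mef2d probes A_51_P504672 and A_52_P334052 reversed without Prep1f/+ replicates 1 and 4, to 0.0309 and 0.0513. The Mef2a probes A_52_P311841 and A_52_P290579 kept their sign, from 0.3200 to 0.5780 and from 0.2634 to 0.4622. Myog had no value from the authors' table, since its row was not within the tolerance. No label pairs the mice; the arrays of a slide were paired in the fit with slide as a block, in which no member passed (Cdh15, adjusted p = 0.207). Myf5 and the dim Mef2c probe are limited by signal near background.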
